A study of Homo sapiens with 12 samples.

Results

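The genes described here are 41 human genes that make, desaturate, elongate, activate, store, release or oxidise fatty acids, taken by name from the deposited count table of 57773 genes. All 41 were among the 17532 genes with enough counts to be tested. They were measured in A549, an established human lung adenocarcinoma line, by RNA sequencing of poly(A)-selected stranded libraries. GOLM1 encodes a membrane protein of the Golgi apparatus, and it was silenced by transient transfection of siGOLM1-1 or siGOLM1-2. The third group received a non-targeting control siRNA. Every group was grown in serum-containing medium, was reverse transfected at 50 nM with the same lipid reagent and was harvested after 72 h. There were 4 libraries per group, biological replicates per the labels. The labels do not say how the replicate cultures were separated, so p-values measure the spread between these libraries. The comparisons ask how the fatty acid genes differ with each siRNA and between the siRNAs. The comparisons with control share the same 4 control libraries, so their values are given side by side.

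Cells build palmitate from cytosolic acetyl-CoA, and SCD, the FADS enzymes and the ELOVL enzymes then desaturate and lengthen the chain. ACSL enzymes attach coenzyme A, after which the acyl chain can enter triglyceride in lipid droplets or pass through CPT1A into mitochondria for oxidation. SREBF1 encodes the transcription factor SREBP-1, which drives the genes of synthesis and desaturation. PPARA and PPARG encode nuclear receptors that respond to fatty acids. Alveolar type 2 cells of the lung, the origin ascribed to A549, use these enzymes to supply surfactant lipid.

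Levels are CPM, counts scaled to library size with TMM factors, and are given as mean ± SD of 4 libraries. Log2 fold changes (log2 FC) and adjusted p come from edgeR's quasi-likelihood test with Benjamini-Hochberg adjustment over all tested genes. A gene was called at an adjusted p under 0.05. Standard errors (SE) were derived from that test, as the absolute log2 FC divided by the square root of its F statistic. CPM is not divided by gene length, so levels are compared within a gene only. The libraries held 41.6 M to 71.3 M counts. GOLM1 (ENSG00000135052) was at 38.5 ± 0.673 CPM with siGOLM1-1, 47.5 ± 4.15 CPM with siGOLM1-2 and 366 ± 14.9 CPM in control. This was 9.52-fold lower with siGOLM1-1 (log2 FC -3.25, SE 0.07, adjusted p = 4.97e-12). It was 7.72-fold lower with siGOLM1-2 (log2 FC -2.95, SE 0.07, adjusted p = 1.57e-11). The epithelial markers KRT7, KRT8, KRT18, KRT19, EPCAM and CDH1 were all detected, and their summed level ran from 5357 to 5755 CPM with siGOLM1-1, 6439 to 6979.8 CPM with siGOLM1-2 and 6668 to 9757 CPM in control. These sums add CPM not divided by length, so the abundant keratins weigh most. KRT8 (log2 FC -1.03, adjusted p = 1.36e-05) and KRT18 (-1.06, adjusted p = 8.36e-06) fell with siGOLM1-1, while KRT7 (-0.92, adjusted p = 0.000429) fell and KRT19 (1.52, adjusted p = 0.00106) rose with siGOLM1-2. The other epithelial values were not called against control. Of the adipocyte markers, LEP was at 0 in every library and ADIPOQ and FABP4 were at 0 in every control library. Their sum with PLIN1 was at most 0.212 CPM with siGOLM1-1, 0.431 CPM with siGOLM1-2 and 1.03 CPM in control. The alveolar type 2 markers SFTPC, SFTPB and NAPSA summed to between 1.85 and 3.6 CPM over all libraries, and SFTPC and SFTPB averaged no more than 0.109 CPM in any group. Of the endothelial markers, CDH5 averaged 1.48 CPM with siGOLM1-1, 0.815 CPM with siGOLM1-2 and 0.377 CPM in control, and VWF no more than 0.0708 CPM. The fibroblast sum was nearly all COL1A1, with 71.1 ± 19.4 CPM with siGOLM1-1, 27.3 ± 4.05 CPM with siGOLM1-2 and 49.3 ± 19.1 CPM in control, while COL1A2 averaged no more than 0.0221 CPM. Transcripts of the mitochondrial genome made up 3.22% to 4.89% of counts with siGOLM1-1, 4.87% to 7.27% with siGOLM1-2 and 5.14% to 8.13% in control, so siGOLM1-1 did not overlap control. The part of these marker and mitochondrial differences in the results was not tested. In bulk RNA, fewer cells of a kind and less RNA per cell cannot be told apart.

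The control libraries fell into pairs. Across the tested genes, deviations from the group mean correlated at 0.33 between control replicates 1 and 2 and at 0.39 between replicates 3 and 4, against -0.70 to -0.66 across the pairs. Deviations from a shared mean cancel out, which by itself pulls correlations within a group towards negative values. In the siRNA groups, siGOLM1-2 replicate 4 correlated at -0.65 to -0.40 with the rest of its group, and siGOLM1-1 replicate 1 at -0.49 to -0.39. The labels name no batch for the control pairs. Each comparison with control was therefore also run with replicates 1 and 2 alone and with replicates 3 and 4 alone. Where the call of a fatty acid gene described here differs between these runs, or is lost in both, both values are given. Calls of the marker genes, and of the other pathway genes read below, were not compared between the control pairs.

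With siGOLM1-1, 12 of the 41 genes were called higher and 12 lower than control, which is 58.5% of them. Over all tested genes, 47.5% were called, 23.7% higher and 23.8% lower. With siGOLM1-2, 6 were called higher and 16 lower, or 53.7%, against 45% of all tested genes, 21.8% higher and 23.2% lower. The median log2 fold change over the 41 genes was -0.09 with siGOLM1-1 and -0.13 with siGOLM1-2, beside -0.01 over all tested genes in each comparison. No siRNA library lay within the range of the control libraries, or the reverse, for 21 of the 41 genes with siGOLM1-1, against 41% of all tested genes, and for 20 with siGOLM1-2, against 45.9%. A called log2 change of at least 1 was met by 2 of the 41 genes with siGOLM1-1 and 3 with siGOLM1-2, beside 11.8% of all tested genes with siGOLM1-1 and 10.6% with siGOLM1-2. Scaled by library totals alone, the split became 11 higher and 15 lower with siGOLM1-1, and 8 higher and 13 lower with siGOLM1-2. Of all tested genes on that scale, 20.6% were called higher and 27.2% lower with siGOLM1-1, and 26.7% were called higher and 18.4% lower with siGOLM1-2. With control replicates 1 and 2 alone, 15 genes were called higher and 9 lower with siGOLM1-1, and 6 higher and 11 lower with siGOLM1-2. Of all genes tested in that run, 20.2% were called higher and 19.7% lower with siGOLM1-1, and 18.2% were called higher and 17.9% lower with siGOLM1-2. With replicates 3 and 4 alone, 10 were higher and 17 lower with siGOLM1-1, and 5 higher and 16 lower with siGOLM1-2. Of all genes tested with replicates 3 and 4, 20.8% were called higher and 19.6% lower with siGOLM1-1, and 20.1% were called higher and 19% lower with siGOLM1-2.

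**Figure D1:**
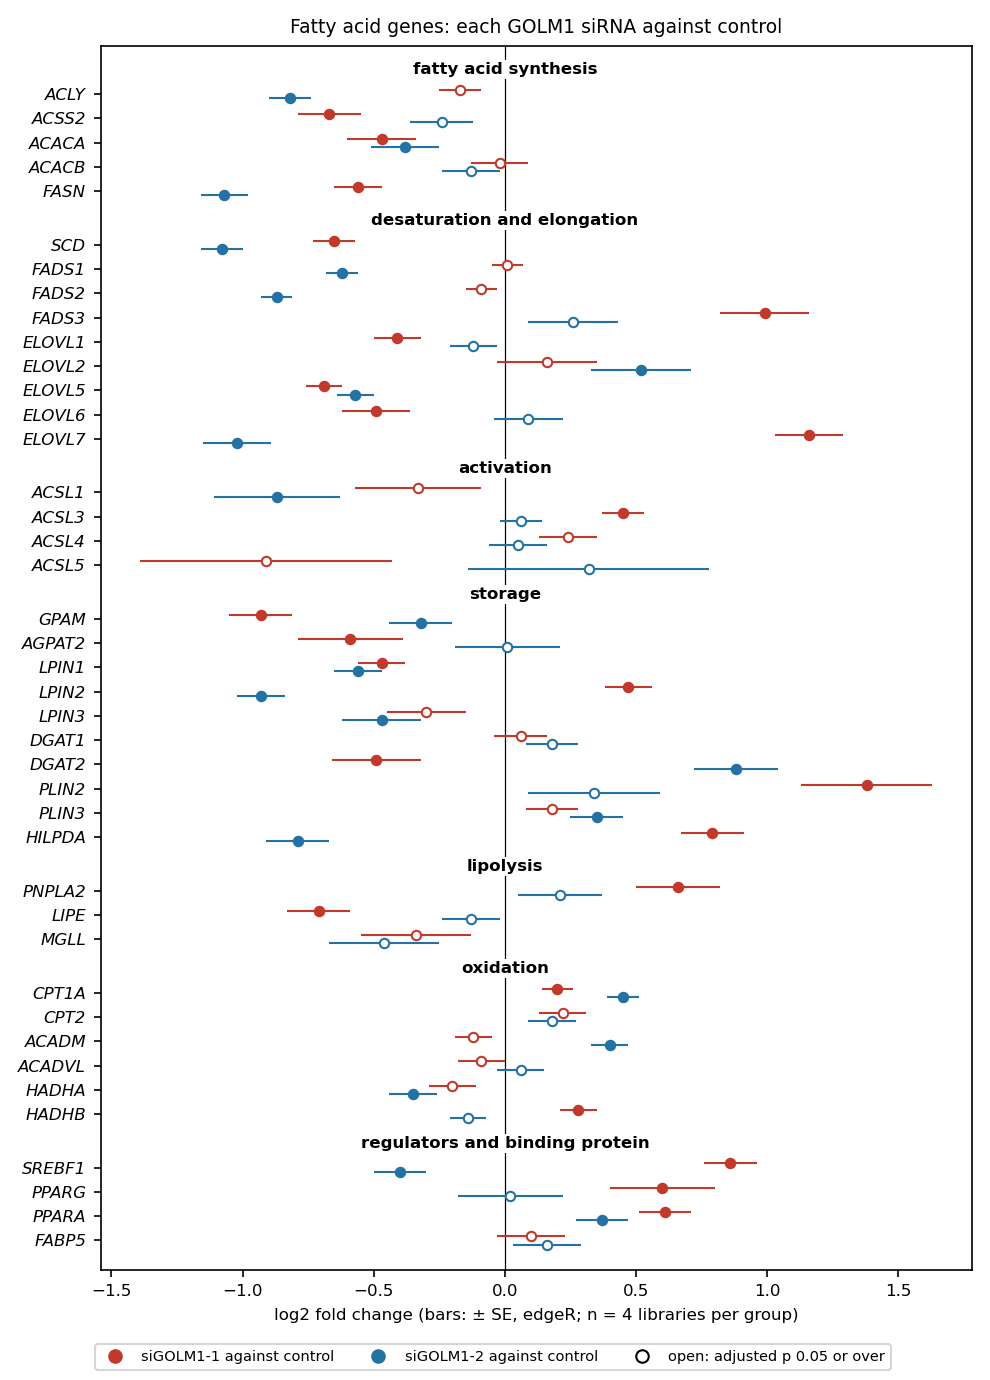
Log2 fold change of each of the 41 genes (x axis, ± SE, n = 4 libraries per group) with siGOLM1-1 (red) and siGOLM1-2 (blue) against control, grouped by role; filled points were called at an adjusted p under 0.05. FASN, SCD and ELOVL5 lie left of 0 for both siRNAs, while ELOVL7, LPIN2, HILPDA and SREBF1 lie right of 0 for siGOLM1-1 and left of 0 for siGOLM1-2.

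Of the 5 genes of fatty acid synthesis, 3 were called lower and 2 were not called with each siRNA, and the median log2 fold change was -0.47 with siGOLM1-1 and -0.38 with siGOLM1-2. The share called was 60% with each siRNA, beside 47.5% of all tested genes with siGOLM1-1 and 45% with siGOLM1-2. FASN (ENSG00000169710), the synthase that builds palmitate, was at 548, 472, 473 and 520 CPM in siGOLM1-1 replicates 1 to 4. Its level was 374, 352, 364 and 327 CPM in the siGOLM1-2 libraries and 694, 709, 691 and 873 CPM in the control libraries. The 3 groups did not overlap, siGOLM1-2 was lowest, and control replicate 4 stood above the other controls. FASN fell 1.47-fold with siGOLM1-1 (log2 FC -0.56, SE 0.09, adjusted p = 0.00017) and 2.09-fold with siGOLM1-2 (-1.07, SE 0.09, adjusted p = 1.03e-06).

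ACLY (ENSG00000131473), which makes cytosolic acetyl-CoA from citrate, was at 1126 ± 64.2 CPM with siGOLM1-1, 719.9 ± 26.1 CPM with siGOLM1-2 and 1269 ± 115 CPM in control. It fell with siGOLM1-2 (log2 FC -0.82, SE 0.08, adjusted p = 3.57e-06), and its log2 fold change with siGOLM1-1 was -0.17 (SE 0.08, adjusted p = 0.0885). Against control replicates 3 and 4 alone the siGOLM1-1 value was -0.27 and was called (adjusted p = 0.0196), and against replicates 1 and 2 it was -0.05 (adjusted p = 0.63). ACSS2 (ENSG00000131069), which makes acetyl-CoA from acetate, was at 22.1 ± 1.73 CPM with siGOLM1-1, 29.8 ± 1.26 CPM with siGOLM1-2 and 35.3 ± 7.38 CPM in control. ACSS2 fell with siGOLM1-1 (log2 FC -0.67, SE 0.12, adjusted p = 0.000515), with -0.39 against control replicates 1 and 2 and -0.90 against replicates 3 and 4. With siGOLM1-2 it was at -0.24 (adjusted p = 0.121), and at -0.35 (adjusted p = 0.0211) without control replicate 1. That value was 0.04 (adjusted p = 0.804) against control replicates 1 and 2 and -0.46 (adjusted p = 0.00163) against replicates 3 and 4.

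The acetyl-CoA carboxylases make malonyl-CoA, the building block of the chain. ACACA (ENSG00000132142), the cytosolic form, was at 193 ± 41.2 CPM with siGOLM1-1, 205 ± 20.4 CPM with siGOLM1-2 and 266 ± 26.8 CPM in control. ACACA fell with siGOLM1-1 (log2 FC -0.47, SE 0.13, adjusted p = 0.00958) and with siGOLM1-2 (-0.38, SE 0.13, adjusted p = 0.0296). The siGOLM1-2 call was lost without siGOLM1-2 replicate 1 or 4 or control replicate 1 or 4 (-0.39 to -0.31, adjusted p = 0.0534 to 0.0834). It was also lost against each control pair, at -0.37 both against replicates 1 and 2 (adjusted p = 0.0886) and against replicates 3 and 4 (adjusted p = 0.0846). ACACB (ENSG00000076555), the form at the mitochondrial surface, was at 29.4 ± 2.89 CPM with siGOLM1-1, 27.1 ± 3.69 CPM with siGOLM1-2 and 29.8 ± 3.42 CPM in control. It was called in neither comparison (adjusted p = 0.904 with siGOLM1-1 and 0.357 with siGOLM1-2).

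Of the 9 genes of desaturation and elongation, 2 were called higher and 4 lower with siGOLM1-1, and 1 higher and 5 lower with siGOLM1-2. The median log2 fold change was -0.09 with siGOLM1-1 and -0.57 with siGOLM1-2. Together with the genes of synthesis, 2 of 14 were called higher and 7 lower with siGOLM1-1, and 1 higher and 8 lower with siGOLM1-2. With each siRNA this was 66.7% of the 9 genes and 64.3% of the 14. Of all tested genes, 47.5% were called with siGOLM1-1 and 45% with siGOLM1-2. SCD (ENSG00000099194), the delta-9 desaturase that makes oleate, was at 828, 877, 931 and 849.6 CPM in siGOLM1-1 replicates 1 to 4. The siGOLM1-2 libraries held 653, 693, 673 and 575 CPM and the control libraries 1405, 1455, 1302 and 1318 CPM. As for FASN, the groups did not overlap and siGOLM1-2 was lowest. SCD fell 1.57-fold with siGOLM1-1 (log2 FC -0.65, SE 0.08, adjusted p = 1.42e-05) and 2.11-fold with siGOLM1-2 (-1.08, SE 0.08, adjusted p = 3.12e-07).

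FADS1 and FADS2 encode the delta-5 and delta-6 desaturases of polyunsaturated fatty acids. FADS2 (ENSG00000134824) was at 928 ± 40.3 CPM with siGOLM1-1, 542 ± 17.2 CPM with siGOLM1-2 and 987 ± 21.8 CPM in control. It fell with siGOLM1-2 (log2 FC -0.87, SE 0.06, adjusted p = 3.32e-07) and was at -0.09 (adjusted p = 0.262) with siGOLM1-1. FADS1 (ENSG00000149485) was at 834 ± 21.4 CPM with siGOLM1-1, 538 ± 20.2 CPM with siGOLM1-2 and 828 ± 36.1 CPM in control. It too fell with siGOLM1-2 (log2 FC -0.62, SE 0.06, adjusted p = 5.44e-06), and its value with siGOLM1-1 was 0.01 (adjusted p = 0.904). In GENCODE release 29 these neighbours share 490 exon bases on opposite strands, so how reads of that stretch were assigned is uncertain. FADS3 (ENSG00000221968), the third gene of the family, was at 74.8 ± 13.6 CPM with siGOLM1-1, 45 ± 9.58 CPM with siGOLM1-2 and 37.5 ± 7.16 CPM in control. FADS3 rose with siGOLM1-1 (log2 FC 0.99, SE 0.17, adjusted p = 0.000391), with 1.25 against control replicates 1 and 2 and 0.79 against replicates 3 and 4. With siGOLM1-2 it was not called (0.26, adjusted p = 0.233).

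The ELOVL enzymes catalyse the first step of chain lengthening in the endoplasmic reticulum. ELOVL7 (ENSG00000164181), which lengthens saturated long chains, was at 28.4, 32.2, 43.6 and 28 CPM in the siGOLM1-1 libraries. It was at 7.06, 6.87, 6.91 and 8.13 CPM in the siGOLM1-2 libraries and 15, 15.7, 14.4 and 13.9 CPM in the control libraries. Every siGOLM1-1 library lay above control and every siGOLM1-2 library below it. ELOVL7 rose 2.24-fold with siGOLM1-1 (log2 FC 1.16, SE 0.13, adjusted p = 6.54e-06) and fell 2.03-fold with siGOLM1-2 (-1.02, SE 0.13, adjusted p = 3.13e-05).

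ELOVL5 (ENSG00000012660), which lengthens polyunsaturated chains, was at 109 ± 10.6 CPM with siGOLM1-1, 118 ± 3.04 CPM with siGOLM1-2 and 175 ± 4.19 CPM in control. ELOVL5 fell with siGOLM1-1 (log2 FC -0.69, SE 0.07, adjusted p = 3.15e-06) and with siGOLM1-2 (-0.57, SE 0.07, adjusted p = 2.01e-05). ELOVL6 (ENSG00000170522), which lengthens palmitate to stearate, was at 37 ± 5.51 CPM with siGOLM1-1, 55.3 ± 10.8 CPM with siGOLM1-2 and 52 ± 4.38 CPM in control. ELOVL6 fell with siGOLM1-1 (log2 FC -0.49, SE 0.13, adjusted p = 0.00708), a call lost against control replicates 1 and 2 alone (-0.38, adjusted p = 0.0758) and not against replicates 3 and 4 (-0.58, adjusted p = 0.0109), and was at 0.09 (adjusted p = 0.615) with siGOLM1-2. ELOVL1 (ENSG00000066322), which makes very long saturated chains, was at 75.6 ± 6.53 CPM with siGOLM1-1, 92.2 ± 11.1 CPM with siGOLM1-2 and 100.4 ± 7.12 CPM in control. ELOVL1 fell with siGOLM1-1 (log2 FC -0.41, SE 0.09, adjusted p = 0.00234) and was at -0.12 (adjusted p = 0.301) with siGOLM1-2. ELOVL2 (ENSG00000197977), which acts on very long polyunsaturated chains, was at 14 ± 2.05 CPM with siGOLM1-1, 18 ± 5.78 CPM with siGOLM1-2 and 12.5 ± 1.97 CPM in control. It was called higher with siGOLM1-2 (log2 FC 0.52, SE 0.19, adjusted p = 0.0378), and without siGOLM1-2 replicate 4 the value was 0.27 and the call was lost (adjusted p = 0.129). The call was also lost without each of siGOLM1-1 replicates 2 and 4, siGOLM1-2 replicate 2 and control replicates 3 and 4 (0.43 to 0.56, adjusted p = 0.0502 to 0.106). Against control replicates 1 and 2 the value was 0.35 (adjusted p = 0.257), and against replicates 3 and 4 it was 0.73 (adjusted p = 0.0269). With siGOLM1-1 it was not called (0.16, adjusted p = 0.515).

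The promoters of 5 genes are shown as examples, and they do not stand for all genes on either side of these comparisons. SCD, ELOVL5 and GPAM, a gene of triglyceride synthesis described with the storage genes, were called lower with both siRNAs, and ELOVL7 and SREBF1 were called on opposite sides of control. The sequences are 300 bases, 250 before and 50 after the start of the RefSeq gene in GRCh38.p14, read 5′ to 3′ on the gene's strand, and are not in the build of the counts. Capitals mark CCAAT, the motif of the factor NF-Y, TCACNCCA, a sterol regulatory element, and CACGTG, an E-box, on either strand. SCD lies at chr10:100346983-100347282 (+), ELOVL5 at chr6:53348901-53349200 (-), GPAM at chr10:112183716-112184015 (-), ELOVL7 at chr5:60844220-60844519 (-) and SREBF1 at chr17:17836937-17837236 (-).
SCD: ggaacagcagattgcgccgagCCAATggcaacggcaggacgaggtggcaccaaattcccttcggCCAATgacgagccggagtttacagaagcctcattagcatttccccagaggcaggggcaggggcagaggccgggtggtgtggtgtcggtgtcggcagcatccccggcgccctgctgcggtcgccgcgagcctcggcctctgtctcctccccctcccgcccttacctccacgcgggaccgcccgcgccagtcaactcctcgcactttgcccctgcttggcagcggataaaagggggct
ELOVL5: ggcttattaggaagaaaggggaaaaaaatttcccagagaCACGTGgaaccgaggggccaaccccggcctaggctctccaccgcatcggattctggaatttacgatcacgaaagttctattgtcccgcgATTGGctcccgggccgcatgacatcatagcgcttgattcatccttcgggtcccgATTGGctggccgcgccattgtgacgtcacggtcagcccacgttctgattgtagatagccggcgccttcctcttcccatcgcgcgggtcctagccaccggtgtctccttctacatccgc
GPAM: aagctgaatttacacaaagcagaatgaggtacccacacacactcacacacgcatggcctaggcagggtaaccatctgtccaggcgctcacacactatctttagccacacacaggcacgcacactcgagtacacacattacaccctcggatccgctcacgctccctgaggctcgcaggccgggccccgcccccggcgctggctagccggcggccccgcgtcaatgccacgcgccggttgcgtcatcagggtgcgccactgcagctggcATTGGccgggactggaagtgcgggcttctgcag
ELOVL7: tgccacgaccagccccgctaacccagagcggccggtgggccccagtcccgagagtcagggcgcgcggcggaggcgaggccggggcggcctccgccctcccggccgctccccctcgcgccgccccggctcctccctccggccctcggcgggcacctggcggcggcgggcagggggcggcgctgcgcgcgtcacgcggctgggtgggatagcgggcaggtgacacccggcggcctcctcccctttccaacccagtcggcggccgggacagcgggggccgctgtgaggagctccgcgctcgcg
SREBF1: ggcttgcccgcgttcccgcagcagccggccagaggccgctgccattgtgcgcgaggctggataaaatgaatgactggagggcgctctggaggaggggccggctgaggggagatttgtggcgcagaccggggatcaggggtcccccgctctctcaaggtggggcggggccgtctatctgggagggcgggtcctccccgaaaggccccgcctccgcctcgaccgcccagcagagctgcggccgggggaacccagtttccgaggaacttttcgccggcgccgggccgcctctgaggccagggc
SCD and ELOVL5 each carried 2 matches to CCAAT, and 10.8% of all 35116 promoters in the RefSeq table held 2 or more. GPAM carried 1, ELOVL7 and SREBF1 carried none of the 3 motifs, and ELOVL5 also held 1 CACGTG, a motif present in 7.26% of all promoters. Of the 41 genes, 34 matched the table with 56 promoters. CCAAT was present in 33.9% of those promoters, beside 34.6% of all promoters, and TCACNCCA in 7.14%, beside 3.95%. CACGTG was present in 5.36%, beside 7.26%. TCACNCCA was found for 4 of the 34 matched genes, ACADVL, ACSL1, PLIN3 and PNPLA2. A promoter with 2 or more CCAAT was found for 7 of the 34 matched genes, ACACA, ACACB, ACLY, ELOVL5, FADS3, LIPE and SCD, of which FADS3 rose with siGOLM1-1 and ACACB was not called. A gene counted here if any of its promoters did, and ACACA for example had 3. The 10.8% above is a share of promoters, so it cannot be set beside this count of genes. The same share over all genes was not computed. LPIN1, lower with both siRNAs, held none of the motifs in 3 promoters, and LPIN2, on opposite sides of control, held a CACGTG. FASN, DGAT1, DGAT2, HILPDA, LPIN3, MGLL and FABP5 were not matched.

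Of the 4 ACSL genes of fatty acid activation, 1 was called higher and 3 were not called with siGOLM1-1, and 1 was called lower and 3 were not called with siGOLM1-2. That is 25% with each siRNA, beside 47.5% of all tested genes with siGOLM1-1 and 45% with siGOLM1-2. ACSL3 (ENSG00000123983), an acyl-CoA synthetase of the endoplasmic reticulum and lipid droplets, was at 259 ± 30.5 CPM with siGOLM1-1, 198 ± 8.5 CPM with siGOLM1-2 and 189 ± 6.36 CPM in control. ACSL3 rose with siGOLM1-1 (log2 FC 0.45, SE 0.08, adjusted p = 0.000377) and was at 0.06 (adjusted p = 0.555) with siGOLM1-2. ACSL4 (ENSG00000068366), which prefers arachidonate, was at 137 ± 14.7 CPM with siGOLM1-1, 119.9 ± 9.45 CPM with siGOLM1-2 and 116 ± 19 CPM in control. It was called in neither comparison (adjusted p = 0.0929 with siGOLM1-1 and 0.763 with siGOLM1-2). The siGOLM1-1 value of 0.24 became 0.30 (adjusted p = 0.0426) without siGOLM1-1 replicate 1 and 0.33 (adjusted p = 0.0278) without control replicate 4. It was 0.45 (adjusted p = 0.00484) against control replicates 1 and 2 and 0.06 (adjusted p = 0.674) against replicates 3 and 4.

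ACSL5 and ACSL1 followed the split of the control libraries. ACSL5 (ENSG00000197142), a synthetase found on mitochondria and the endoplasmic reticulum, was at 2.06, 1.79, 2.63 and 1.65 CPM in the siGOLM1-1 libraries. It was at 4.78, 4.16, 4.93 and 5.19 CPM in the siGOLM1-2 libraries and 1.04, 1.3, 6.25 and 6.64 CPM in the control libraries. Each siRNA group lay between the control pairs, above replicates 1 and 2 and below replicates 3 and 4. ACSL5 was called in neither comparison (log2 FC -0.91, SE 0.48, adjusted p = 0.138 with siGOLM1-1 and 0.32, SE 0.46, adjusted p = 0.604 with siGOLM1-2). Against control replicates 1 and 2 the siGOLM1-1 value was 0.80 (adjusted p = 0.0115), and against replicates 3 and 4 it was -1.65 (adjusted p = 1.3e-05). For siGOLM1-2 the same values were 2.03 (adjusted p = 3.46e-05) and -0.42 (adjusted p = 0.0742). Leaving out control replicate 1 or 2 alone also led to a call with siGOLM1-1 (-1.22, adjusted p = 0.0245, and -1.18, adjusted p = 0.046). In GENCODE release 29, ACSL5 shares 144 exon bases with ZDHHC6 on the opposite strand, which is uncertain for a gene of this low level.

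ACSL1 (ENSG00000151726), the long-chain synthetase of many tissues, was at 49.3, 58.7, 59.4 and 60 CPM with siGOLM1-1 and 40, 40.2, 40.6 and 35.6 CPM with siGOLM1-2. The control libraries held 42.7, 44.3, 99.5 and 98.3 CPM. ACSL1 was called lower with siGOLM1-2 (log2 FC -0.87, SE 0.24, adjusted p = 0.0107), and that value was -0.16 (adjusted p = 0.238) against control replicates 1 and 2 and -1.32 (adjusted p = 7.34e-07) against replicates 3 and 4. With siGOLM1-1 it was at -0.33 (adjusted p = 0.285), and the pairs gave opposite calls of 0.39 (adjusted p = 0.00834) and -0.79 (adjusted p = 3.23e-05). Over the 4 activation genes, 4 were called higher with siGOLM1-1 against control replicates 1 and 2, and 1 higher and 2 lower against replicates 3 and 4. Of all genes tested, 20.2% were higher and 19.7% lower against replicates 1 and 2, and 20.8% and 19.6% against replicates 3 and 4.

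**Figure D2:**
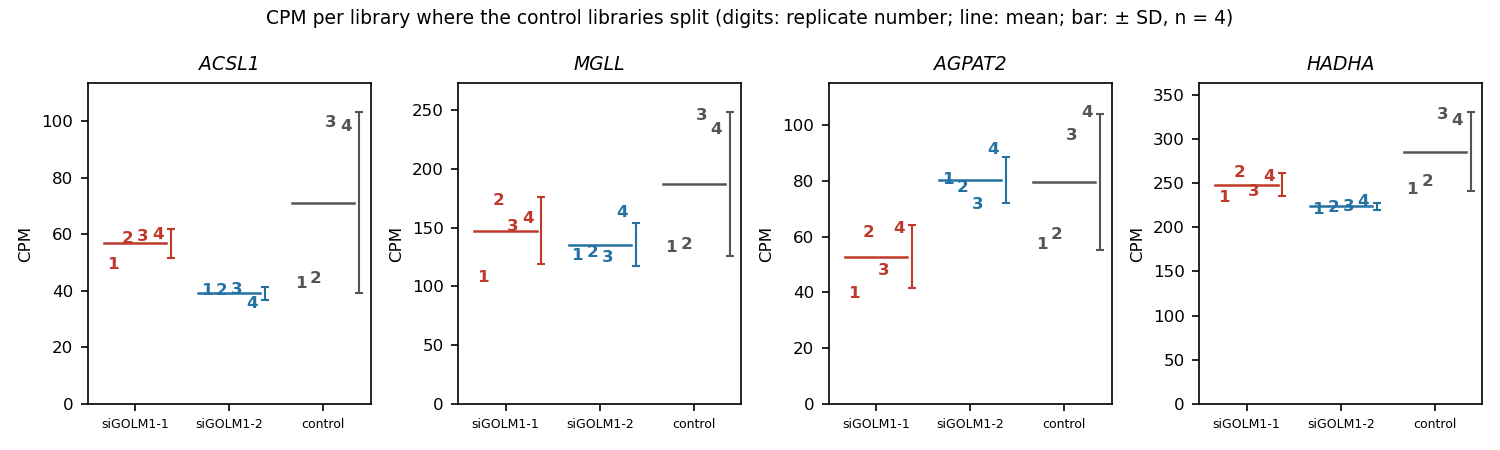
CPM (y axis, from 0) of ACSL1, MGLL, AGPAT2 and HADHA in the siGOLM1-1, siGOLM1-2 and control libraries; each digit is a library's replicate number, the line the mean and the bar ± SD (n = 4). Control replicates 1 and 2 lie together below replicates 3 and 4 in all 4 genes, at 43.5 and 98.9 CPM on average for ACSL1.

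Of the 10 storage genes, 3 were called higher and 4 lower with siGOLM1-1, and 2 higher and 5 lower with siGOLM1-2, with median log2 fold changes of -0.12 with siGOLM1-1 and -0.16 with siGOLM1-2. The share called was 70% with each siRNA, beside 47.5% of all tested genes with siGOLM1-1 and 45% with siGOLM1-2. Triglyceride synthesis starts with acylation of glycerol-3-phosphate. GPAM (ENSG00000119927), the mitochondrial acyltransferase of that first step, was at 15.7 ± 3.21 CPM with siGOLM1-1, 24 ± 1.85 CPM with siGOLM1-2 and 30 ± 0.699 CPM in control. GPAM fell with siGOLM1-1 (log2 FC -0.93, SE 0.12, adjusted p = 2.75e-05) and, by less, with siGOLM1-2 (-0.32, SE 0.12, adjusted p = 0.0391). The siGOLM1-2 call was lost without any of siGOLM1-2 replicates 1, 2 and 4 or of the 4 control libraries (-0.34 to -0.29, adjusted p = 0.0558 to 0.0955). It was lost too against control replicates 1 and 2 (-0.30, adjusted p = 0.148) and against replicates 3 and 4 (-0.33, adjusted p = 0.098). AGPAT2 (ENSG00000169692), which adds the second acyl chain, was at 52.9 ± 11.2 CPM with siGOLM1-1, 80.3 ± 8.34 CPM with siGOLM1-2 and 79.7 ± 24.3 CPM in control. It was called lower with siGOLM1-1 (log2 FC -0.59, SE 0.20, adjusted p = 0.0254) and not with siGOLM1-2 (0.01, adjusted p = 0.972). Against control replicates 1 and 2 alone the siGOLM1-1 value was -0.15 (adjusted p = 0.479), and against replicates 3 and 4 it was -0.92 (adjusted p = 0.000606). Without any of siGOLM1-1 replicates 1 and 3 or control replicates 3 and 4, the call was lost (-0.55 to -0.43, adjusted p = 0.0674 to 0.0884).

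The lipins remove the phosphate from phosphatidate to give diacylglycerol, and the 3 genes differed. LPIN2 (ENSG00000101577) was at 80.4, 82.6, 90.9 and 88.7 CPM in the siGOLM1-1 libraries. It was at 32, 31.9, 33.2 and 32.2 CPM in the siGOLM1-2 libraries and 54.2, 53.3, 69 and 70.8 CPM in the control libraries. The siGOLM1-1 libraries lay above every control library and the siGOLM1-2 libraries below. LPIN2 rose 1.39-fold with siGOLM1-1 (log2 FC 0.47, SE 0.09, adjusted p = 0.000917) and fell 1.91-fold with siGOLM1-2 (-0.93, SE 0.09, adjusted p = 4.58e-06). Against control replicates 1 and 2 the values were 0.67 with siGOLM1-1 and -0.73 with siGOLM1-2, and against replicates 3 and 4 they were 0.30 with siGOLM1-1 and -1.10 with siGOLM1-2. LPIN1 (ENSG00000134324) was at 39.5 ± 3.77 CPM with siGOLM1-1, 36.9 ± 3.37 CPM with siGOLM1-2 and 54.5 ± 5.42 CPM in control. LPIN1 fell with siGOLM1-1 (log2 FC -0.47, SE 0.09, adjusted p = 0.00111) and with siGOLM1-2 (-0.56, SE 0.09, adjusted p = 0.000307). LPIN3 (ENSG00000132793) was at 32.5 ± 6.66 CPM with siGOLM1-1, 28.8 ± 3.91 CPM with siGOLM1-2 and 39.9 ± 6.6 CPM in control. It was called lower with siGOLM1-2 (log2 FC -0.47, SE 0.15, adjusted p = 0.0238), a call lost without any of siGOLM1-2 replicates 2 and 4 or control replicates 2, 3 and 4 (-0.46 to -0.39, adjusted p = 0.0509 to 0.0717). The siGOLM1-2 value was -0.29 (adjusted p = 0.228) against control replicates 1 and 2 and -0.62 (adjusted p = 0.0113) against replicates 3 and 4. With siGOLM1-1 it was at -0.30 (adjusted p = 0.128), and at -0.42 (adjusted p = 0.039) without siGOLM1-1 replicate 4 and -0.40 (adjusted p = 0.0433) without control replicate 1. For siGOLM1-1 the control pairs gave -0.11 (adjusted p = 0.642) with replicates 1 and 2 and -0.45 (adjusted p = 0.0486) with replicates 3 and 4.

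DGAT1 and DGAT2 encode unrelated enzymes that add the last acyl chain of triglyceride. DGAT2 (ENSG00000062282) was at 3.02, 2.54, 3.06 and 2.22 CPM in the siGOLM1-1 libraries. It was at 6.42, 6.08, 6.01 and 9.6 CPM in the siGOLM1-2 libraries and 3.62, 3.73, 4.09 and 3.87 CPM in the control libraries. Here siGOLM1-2 was above control and siGOLM1-1 below it, with no overlap, and siGOLM1-2 replicate 4 was the highest library. DGAT2 rose 1.84-fold with siGOLM1-2 (log2 FC 0.88, SE 0.16, adjusted p = 0.00062), or by 0.69 without siGOLM1-2 replicate 4. It fell 1.41-fold with siGOLM1-1 (-0.49, SE 0.17, adjusted p = 0.0242), a call lost without siGOLM1-1 replicate 2 or 4 or control replicate 3 (-0.46 to -0.41, adjusted p = 0.0575 to 0.0721). That call was lost as well against control replicates 1 and 2 (-0.43, adjusted p = 0.12) and replicates 3 and 4 (-0.54, adjusted p = 0.0551). DGAT1 (ENSG00000185000) was at 32.4 ± 4.71 CPM with siGOLM1-1, 35.1 ± 2.36 CPM with siGOLM1-2 and 31.1 ± 2.84 CPM in control, and was called in neither comparison (adjusted p = 0.659 with siGOLM1-1 and 0.171 with siGOLM1-2).

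PLIN2, PLIN3 and HILPDA encode proteins of the lipid droplet surface. PLIN2 (ENSG00000147872), the main perilipin outside fat tissue, was at 38.8, 93.5, 90.6 and 90.2 CPM in the siGOLM1-1 libraries. The siGOLM1-2 libraries held 33.5, 32.9, 33 and 52.3 CPM and the control libraries 26.8, 24.3, 36.3 and 32.7 CPM. Only siGOLM1-1 lay wholly above control, its replicate 1 was far below its other 3 libraries, and siGOLM1-2 replicate 4 stood above its group. PLIN2 rose 2.6-fold with siGOLM1-1 (log2 FC 1.38, SE 0.25, adjusted p = 0.000609), and the value was 1.61 (adjusted p = 9.46e-06) without siGOLM1-1 replicate 1. With siGOLM1-2 it was not called (0.34, adjusted p = 0.296).

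HILPDA (ENSG00000135245), an inhibitor of the lipase encoded by PNPLA2, was at 49.6, 60.7, 54.9 and 55.2 CPM in the siGOLM1-1 libraries. It was at 19.7, 19.5, 19.9 and 14.7 CPM in the siGOLM1-2 libraries and 35.8, 36.2, 27.3 and 28.1 CPM in the control libraries. The groups did not overlap, with siGOLM1-1 highest and siGOLM1-2 lowest. HILPDA rose 1.73-fold with siGOLM1-1 (log2 FC 0.79, SE 0.12, adjusted p = 0.000107) and fell 1.73-fold with siGOLM1-2 (-0.79, SE 0.12, adjusted p = 0.000139). Against control replicates 1 and 2 the values were 0.61 with siGOLM1-1 and -0.97 with siGOLM1-2, and against replicates 3 and 4 they were 1.00 with siGOLM1-1 and -0.57 with siGOLM1-2. PLIN3 (ENSG00000105355) was at 94.3 ± 9.87 CPM with siGOLM1-1, 106 ± 14.7 CPM with siGOLM1-2 and 83.3 ± 4.15 CPM in control. It rose with siGOLM1-2 (log2 FC 0.35, SE 0.10, adjusted p = 0.0101), a call lost against control replicates 3 and 4 alone (0.31, adjusted p = 0.07) and not against replicates 1 and 2 (0.41, adjusted p = 0.0226). With siGOLM1-1 it was at 0.18 (adjusted p = 0.155), and at 0.25 (adjusted p = 0.0407) without siGOLM1-1 replicate 1.

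**Figure D3:**
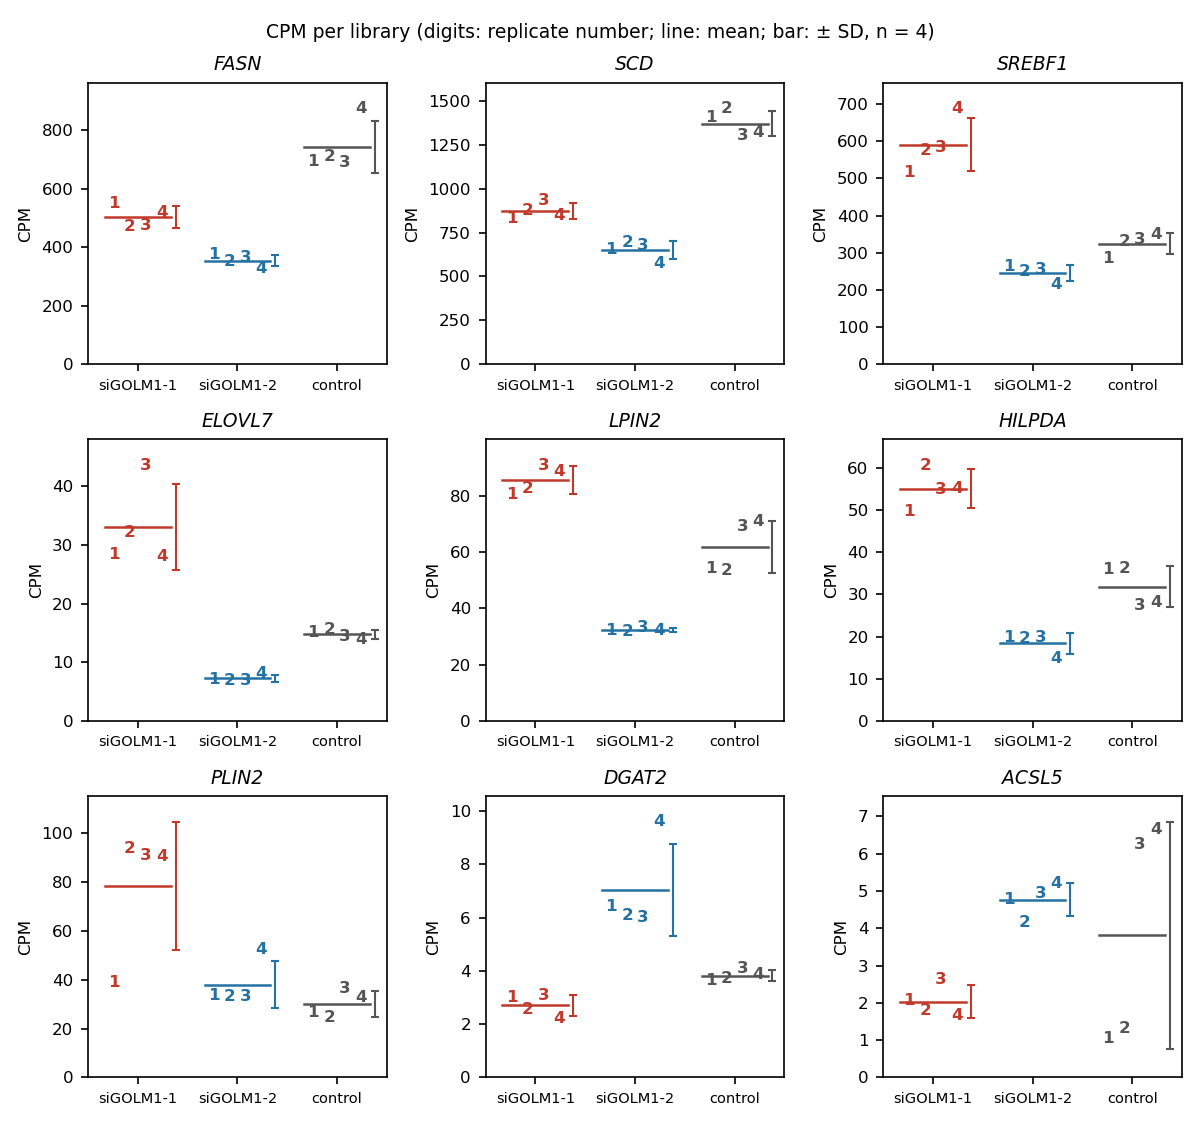
CPM (y axis, from 0) of the 9 genes called with a log2 difference of at least 1 in any of the 3 comparisons, for the siGOLM1-1, siGOLM1-2 and control libraries; each digit is a library's replicate number, the line the mean and the bar ± SD (n = 4). The groups are apart for FASN, SCD, SREBF1, ELOVL7, LPIN2, HILPDA and DGAT2, the PLIN2 level of siGOLM1-1 replicate 1 lies near the siGOLM1-2 libraries, and the ACSL5 controls split into 2 pairs.

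Of the 3 genes of lipolysis, 1 was called higher and 1 lower with siGOLM1-1, and edgeR called 0 of them with siGOLM1-2. Of all tested genes, 47.5% were called with siGOLM1-1 and 45% with siGOLM1-2. At an unadjusted p under 0.05, 1 of the 3, MGLL, passed with siGOLM1-2, and DESeq2 called 0. PNPLA2 (ENSG00000177666), the lipase that starts triglyceride breakdown, was at 97.3 ± 19.1 CPM with siGOLM1-1, 71.1 ± 10.3 CPM with siGOLM1-2 and 61.6 ± 12.2 CPM in control. PNPLA2 rose with siGOLM1-1 (log2 FC 0.66, SE 0.16, adjusted p = 0.00502), with 0.90 against control replicates 1 and 2 and 0.47 against replicates 3 and 4. LIPE (ENSG00000079435), hormone-sensitive lipase, was at 2.72 ± 0.25 CPM with siGOLM1-1, 4.09 ± 0.232 CPM with siGOLM1-2 and 4.46 ± 0.399 CPM in control. LIPE fell with siGOLM1-1 (log2 FC -0.71, SE 0.12, adjusted p = 0.00022). LIPE shares 500 exon bases with LIPE-AS1 on the opposite strand in GENCODE release 29, so its level is uncertain. MGLL (ENSG00000074416), which cleaves the last acyl chain, was at 148 ± 28.3 CPM with siGOLM1-1, 136 ± 18.5 CPM with siGOLM1-2 and 187 ± 61.3 CPM in control, where replicates 1 and 2 averaged 134 CPM and replicates 3 and 4 240.1 CPM. It was called in neither comparison (log2 FC -0.34, adjusted p = 0.192 with siGOLM1-1 and -0.46, adjusted p = 0.0856 with siGOLM1-2). Against control replicates 3 and 4 alone it was called lower with siGOLM1-1 (-0.69, adjusted p = 0.00401) and siGOLM1-2 (-0.81, adjusted p = 0.00157), against replicates 1 and 2 alone with neither (0.14 with siGOLM1-1 and 0.01 with siGOLM1-2). Without control replicate 1 or 2 it was called lower with siGOLM1-2 (-0.60, adjusted p = 0.0305, and -0.57, adjusted p = 0.0415). PNPLA2 and LIPE were not called with siGOLM1-2 (0.21, adjusted p = 0.325 and -0.13, adjusted p = 0.399).

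Of the 6 genes of mitochondrial oxidation, 2 were called higher and 4 were not called with siGOLM1-1, and 2 were higher and 1 lower with siGOLM1-2. The share called was 33.3% with siGOLM1-1 and 50% with siGOLM1-2, beside 47.5% and 45% of all tested genes. Median log2 fold changes of the 6 genes were 0.06 with siGOLM1-1 and 0.12 with siGOLM1-2. CPT1A (ENSG00000110090), which passes acyl chains to carnitine and sets the rate of entry into mitochondria, was at 92.3 ± 3.46 CPM with siGOLM1-1, 109.8 ± 5.34 CPM with siGOLM1-2 and 80.4 ± 3.53 CPM in control. It rose with siGOLM1-2 (log2 FC 0.45, SE 0.06, adjusted p = 5.28e-05) and with siGOLM1-1 (0.20, SE 0.06, adjusted p = 0.0153). The siGOLM1-1 call was lost without control replicate 3 (0.18, adjusted p = 0.0512), against control replicates 1 and 2 alone (0.16, adjusted p = 0.132) and with library totals as the scale (0.14, adjusted p = 0.0769). Against control replicates 3 and 4 it was 0.26 (adjusted p = 0.0183). CPT2 (ENSG00000157184), its partner at the inner membrane, was at 28.3 ± 1.05 CPM with siGOLM1-1, 27.6 ± 0.727 CPM with siGOLM1-2 and 24.3 ± 3.68 CPM in control, and was called in neither comparison (0.22, adjusted p = 0.0706 with siGOLM1-1 and 0.18, adjusted p = 0.13 with siGOLM1-2). Without control replicate 4 it was called higher with siGOLM1-1 (0.30, adjusted p = 0.0164) and siGOLM1-2 (0.26, adjusted p = 0.0335). Against control replicates 1 and 2, CPT2 was called higher with siGOLM1-1 (0.42, adjusted p = 0.00174) and siGOLM1-2 (0.38, adjusted p = 0.00366). Against replicates 3 and 4 it was at 0.05 (adjusted p = 0.634) with siGOLM1-1 and 0.02 (adjusted p = 0.836) with siGOLM1-2.

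The remaining oxidation genes act in the chain-shortening cycle. ACADM (ENSG00000117054), the medium-chain dehydrogenase, was at 30.9 ± 1.78 CPM with siGOLM1-1, 44.5 ± 1.81 CPM with siGOLM1-2 and 33.6 ± 1.64 CPM in control. It rose with siGOLM1-2 (log2 FC 0.40, SE 0.07, adjusted p = 0.000276) and was at -0.12 (adjusted p = 0.148) with siGOLM1-1. ACADVL (ENSG00000072778), the very-long-chain dehydrogenase, was at 336 ± 42.5 CPM with siGOLM1-1, 372 ± 16.1 CPM with siGOLM1-2 and 356 ± 19.2 CPM in control and was called in neither (adjusted p = 0.433 with siGOLM1-1 and 0.598 with siGOLM1-2). HADHA and HADHB encode the alpha and beta subunits of the trifunctional protein. HADHB (ENSG00000138029) was at 174 ± 10.4 CPM with siGOLM1-1, 131 ± 4.76 CPM with siGOLM1-2 and 144 ± 11 CPM in control. HADHB rose with siGOLM1-1 (log2 FC 0.28, SE 0.07, adjusted p = 0.00505), a call lost against control replicates 3 and 4 alone (0.20, adjusted p = 0.0635) and not against replicates 1 and 2 (0.37, adjusted p = 0.00294), and was at -0.14 (adjusted p = 0.124) with siGOLM1-2. HADHA (ENSG00000084754) was at 248 ± 13.5 CPM with siGOLM1-1, 224 ± 4.16 CPM with siGOLM1-2 and 286 ± 44.7 CPM in control. It was called lower with siGOLM1-2 (log2 FC -0.35, SE 0.09, adjusted p = 0.00788), with -0.15 (adjusted p = 0.154) against control replicates 1 and 2 and -0.52 (adjusted p = 0.000148) against replicates 3 and 4. With siGOLM1-1 it was at -0.20 (adjusted p = 0.0946), and at -0.27 (adjusted p = 0.0253) without control replicate 1. The siGOLM1-1 value was 0.01 (adjusted p = 0.942) against control replicates 1 and 2 and -0.37 (adjusted p = 0.00143) against replicates 3 and 4.

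SREBF1 (ENSG00000072310) was at 516, 575, 583 and 688 CPM in the siGOLM1-1 libraries. It was at 264, 249, 256 and 215 CPM in the siGOLM1-2 libraries and 285, 329, 336 and 349.7 CPM in the control libraries. The groups did not overlap, and siGOLM1-1 was above both other groups. SREBF1 rose 1.82-fold with siGOLM1-1 (log2 FC 0.86, SE 0.10, adjusted p = 9.68e-06) and fell 1.32-fold with siGOLM1-2 (-0.40, SE 0.10, adjusted p = 0.0043). FASN and SCD, known targets of its product, were lower with both siRNAs. In GENCODE release 29, SREBF1 shares 556 exon bases with RAI1 on the opposite strand. The gene's transcript level does not report how much of the SREBP-1 protein was cleaved, which was not measured.

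Of the 4 regulators and binding protein genes, 3 were called higher with siGOLM1-1, and 1 higher and 1 lower with siGOLM1-2. That is 75% with siGOLM1-1 and 50% with siGOLM1-2, beside 47.5% and 45% of all tested genes. PPARA (ENSG00000186951), a regulator of oxidation genes, was at 13.2 ± 0.771 CPM with siGOLM1-1, 11.1 ± 1.42 CPM with siGOLM1-2 and 8.59 ± 0.307 CPM in control. PPARA rose with siGOLM1-1 (log2 FC 0.61, SE 0.10, adjusted p = 0.000166) and with siGOLM1-2 (0.37, SE 0.10, adjusted p = 0.00698), the second call being lost against control replicates 1 and 2 alone (0.34, adjusted p = 0.0566) and not against replicates 3 and 4 (0.42, adjusted p = 0.0206). PPARG (ENSG00000132170), the receptor of fat cell differentiation, was at 63.4 ± 14.2 CPM with siGOLM1-1, 42.4 ± 13 CPM with siGOLM1-2 and 41.9 ± 6.14 CPM in control. It was called higher with siGOLM1-1 (log2 FC 0.60, SE 0.20, adjusted p = 0.0276), a call lost without any of siGOLM1-1 replicates 2, 3 and 4 or control replicates 1 and 2 (0.53 to 0.58, adjusted p = 0.065 to 0.0772). It was 0.79 (adjusted p = 0.0327) against control replicates 1 and 2 and 0.44 (adjusted p = 0.194) against replicates 3 and 4. With siGOLM1-2 it was at 0.02 (adjusted p = 0.948). FABP5 (ENSG00000164687), which carries fatty acids in the cytosol, was at 33.5 ± 4.02 CPM with siGOLM1-1, 34.9 ± 6.68 CPM with siGOLM1-2 and 31.3 ± 3.33 CPM in control and was called in neither (adjusted p = 0.55 with siGOLM1-1 and 0.349 with siGOLM1-2). The table lists 13 FABP5 pseudogenes with a summed mean count of 20.9, beside a mean count of 1719 for FABP5.

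The direct comparison of the siRNAs uses no control library in its difference. In siGOLM1-1 against siGOLM1-2, 16 of the 41 genes were called higher and 10 lower, or 63.4%, against 54.4% of all tested genes, 27.9% higher and 26.5% lower. The median was 0.12, beside 0.01 over all tested genes, the groups did not overlap for 23 of the 41 genes, against 48.4% of all tested genes, and 7 were called with a log2 difference of at least 1, against 16.4% of all tested genes. With library totals alone as the scale, 13 were higher and 15 lower, while of all tested genes 20.3% were called higher and 34% lower, and the median of all genes was -0.12. ELOVL7 was 4.56-fold higher with siGOLM1-1 than with siGOLM1-2 (log2 difference 2.19, SE 0.13, adjusted p = 1.86e-08). HILPDA was 2.98-fold higher (1.58, SE 0.12, adjusted p = 1.58e-07) and LPIN2 2.65-fold higher (1.40, SE 0.09, adjusted p = 4.81e-08).

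SREBF1 was 2.4-fold higher with siGOLM1-1 than with siGOLM1-2 (log2 difference 1.26, SE 0.10, adjusted p = 1.91e-07). PLIN2 was 2.06-fold higher (1.05, SE 0.25, adjusted p = 0.00324), although siGOLM1-1 replicate 1 fell within the range of siGOLM1-2. DGAT2 was 2.59-fold lower with siGOLM1-1 (-1.37, SE 0.16, adjusted p = 9.76e-06). ACSL5 was 2.34-fold lower with siGOLM1-1 (-1.23, SE 0.48, adjusted p = 0.0439), with no overlap, but the call was lost without any of the 8 siRNA libraries in turn (-1.37 to -1.14, adjusted p = 0.0539 to 0.107). Over all 19 alternative runs the ACSL5 call was lost in 9, and its adjusted p ran from 6.8e-05 to 0.154. Several enzymes of synthesis and desaturation were called higher with siGOLM1-1 than with siGOLM1-2. FASN differed by 0.51 (SE 0.09, adjusted p = 0.000292), SCD by 0.43 (SE 0.08, adjusted p = 0.000389) and ACLY by 0.65 (SE 0.08, adjusted p = 1.28e-05). FADS1 differed by 0.63 (SE 0.06, adjusted p = 2.02e-06) and FADS2 by 0.78 (SE 0.06, adjusted p = 2.79e-07).

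FADS3 was also higher with siGOLM1-1 (log2 difference 0.73, adjusted p = 0.0027), while ACSS2 (-0.43, adjusted p = 0.00901), ELOVL6 (-0.58, adjusted p = 0.00199) and ELOVL1 (-0.29, adjusted p = 0.0167) were lower. The ELOVL1 call was lost without siGOLM1-2 replicate 4 (-0.20, adjusted p = 0.0561). ACACA (-0.09, SE 0.13, adjusted p = 0.593), ACACB (0.12, SE 0.11, adjusted p = 0.411), ELOVL2 (-0.36, SE 0.19, adjusted p = 0.12) and ELOVL5 (-0.12, SE 0.07, adjusted p = 0.171) were not called. ELOVL5 was called without siGOLM1-1 replicate 3 (-0.18, adjusted p = 0.0218). Of the 14 genes of synthesis, desaturation and elongation, 7 were thus called higher and 3 lower with siGOLM1-1 than with siGOLM1-2. That is 71.4% of them, beside 54.4% of all tested genes.

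Among the other roles, ACSL3 (0.39, adjusted p = 0.000897), PNPLA2 (0.45, adjusted p = 0.0322), HADHB (0.41, adjusted p = 0.000204), PPARG (0.58, adjusted p = 0.0281) and PPARA (0.24, adjusted p = 0.0457) were called higher with siGOLM1-1. The PPARA call was lost with library totals as the scale (0.11, adjusted p = 0.364), with DESeq2 size factors (0.24, adjusted p = 0.0509) and without any library but siGOLM1-1 replicate 1 and siGOLM1-2 replicate 3 (0.17 to 0.26, adjusted p = 0.0521 to 0.123). The PPARG and PNPLA2 calls were lost without any of siGOLM1-1 replicates 2, 3 and 4 and siGOLM1-2 replicates 1, 2 and 3, at 0.49 to 0.56 (adjusted p = 0.0637 to 0.0835) for PPARG and 0.34 to 0.46 (adjusted p = 0.0561 to 0.105) for PNPLA2. GPAM (-0.61, adjusted p = 0.000686), AGPAT2 (-0.60, adjusted p = 0.0204), LIPE (-0.58, adjusted p = 0.000763), ACADM (-0.53, adjusted p = 1.68e-05) and CPT1A (-0.25, adjusted p = 0.0032) were called lower. The AGPAT2 call was lost without siGOLM1-1 replicate 1 or 3 or siGOLM1-2 replicate 4 (-0.55 to -0.48, adjusted p = 0.0566 to 0.0628). ACSL1 (0.54, SE 0.24, adjusted p = 0.0748) was not called although its siRNA groups did not overlap, and fitted on the 8 siRNA libraries alone it was called (0.51, adjusted p = 0.000375). It was also called without control replicate 1 (0.54, adjusted p = 0.0356) or 2 (0.53, adjusted p = 0.046). The 12 libraries otherwise share an estimate of the spread. DGAT1 (-0.12, adjusted p = 0.341) and ACADVL (-0.15, adjusted p = 0.167) were called without siGOLM1-1 replicate 4, both at -0.22 (adjusted p = 0.0434 and 0.0327). ACSL4, LPIN1, LPIN3, PLIN3, MGLL, CPT2, HADHA and FABP5 were not called, with log2 differences of -0.17 to 0.19.

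**Figure D4:**
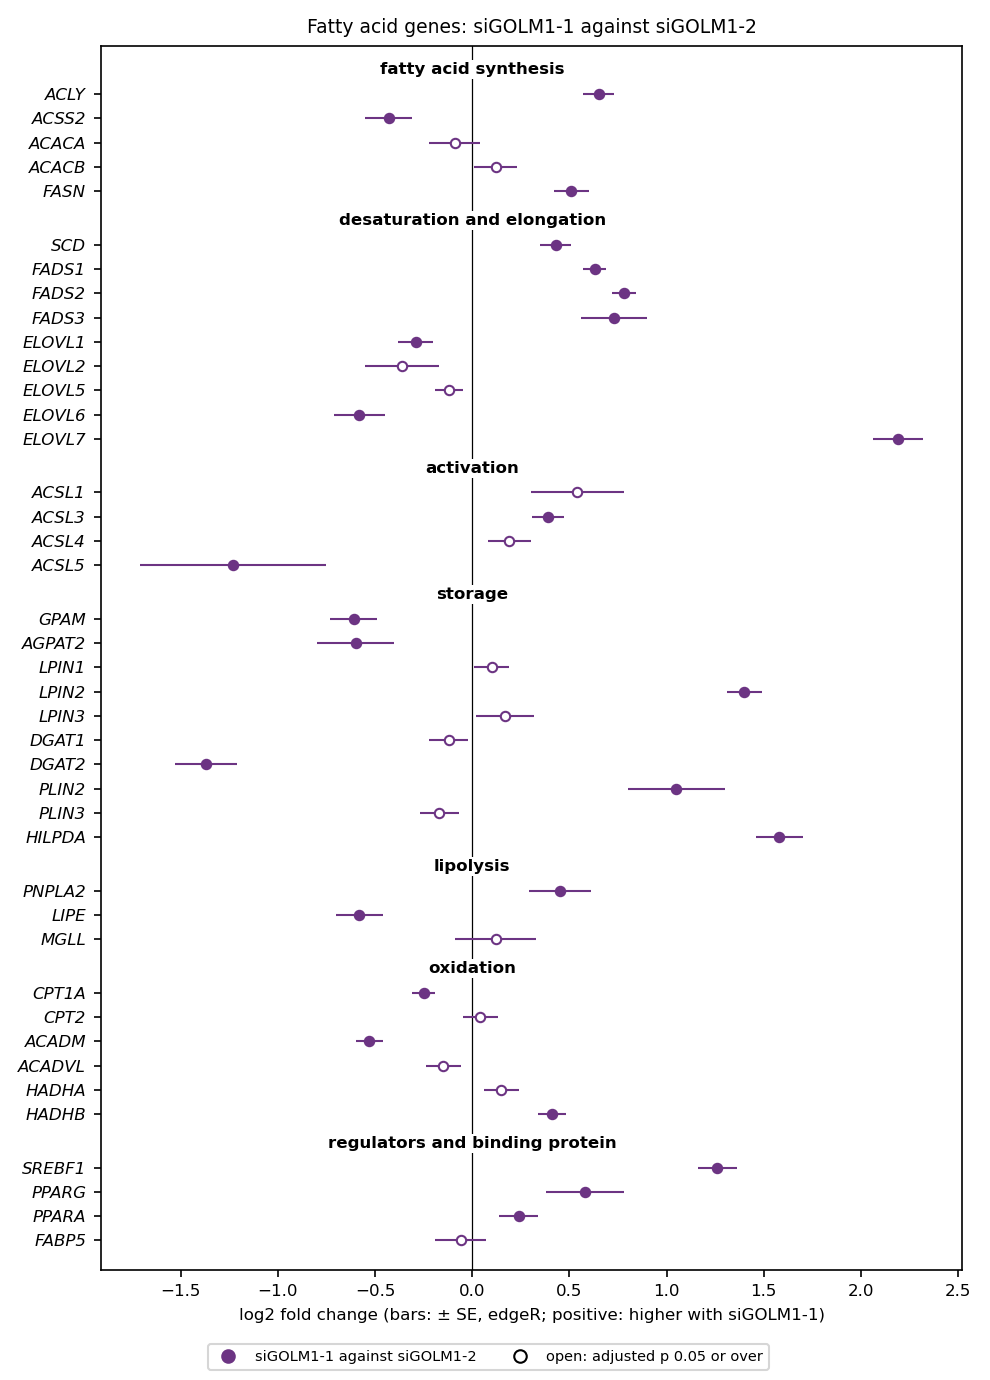
Log2 difference of siGOLM1-1 against siGOLM1-2 (x axis, ± SE, n = 4 libraries per group) for the 41 genes grouped by role; filled points were called at an adjusted p under 0.05. ELOVL7 lies farthest right at 2.19, followed by HILPDA, LPIN2 and SREBF1, and DGAT2 farthest left at -1.37.

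Other genes of the pathway were read from 4 lists that do not hold the 41 genes. Calls of these other genes were not compared between the control pairs. Of 24 other genes of synthesis and elongation that could be tested, 5 were called higher and 9 lower with siGOLM1-1, and 4 higher and 7 lower with siGOLM1-2. That is 58.3% of them with siGOLM1-1 and 45.8% with siGOLM1-2, beside 47.5% and 45% of all tested genes. PTPLB, the older symbol of HACD2, a dehydratase of the elongation cycle, was at 19.9 ± 2.96 CPM with siGOLM1-1, 101 ± 4.11 CPM with siGOLM1-2 and 120.3 ± 8.19 CPM in control. PTPLB fell with siGOLM1-1 (log2 FC -2.60, SE 0.10, adjusted p = 6.72e-10) and, by less, with siGOLM1-2 (-0.25, adjusted p = 0.0414). SCD5, a second stearoyl-CoA desaturase, fell with siGOLM1-1 (-1.61, SE 0.12, adjusted p = 2.53e-07) and was not called with siGOLM1-2 (0.19, adjusted p = 0.2). With siGOLM1-2, ME1, a source of NADPH for synthesis, fell (-0.62, adjusted p = 2.48e-05) and MBTPS1, the protease that cleaves SREBP proteins, rose (0.29, adjusted p = 0.000466). Both were called in the same direction with siGOLM1-1, ME1 at -0.26 (adjusted p = 0.013) and MBTPS1 at 0.49 (adjusted p = 4.89e-06). MID1IP1, an activator of acetyl-CoA carboxylase, was higher with siGOLM1-1 than with siGOLM1-2 (1.13, adjusted p = 4.38e-08), with 101 ± 10.4 CPM and 46.3 ± 1.41 CPM. Control lay between them at 61.6 ± 2.22 CPM. Against control MID1IP1 was called higher with siGOLM1-1 (0.72, adjusted p = 4.3e-06) and lower with siGOLM1-2 (-0.41, adjusted p = 0.000542).

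Of 12 tested genes of uptake, binding and activation, 3 were called higher and 7 lower with siGOLM1-1, and 4 higher and 2 lower with siGOLM1-2. This was 83.3% of the list with siGOLM1-1, beside 47.5% of all tested genes, and 50% with siGOLM1-2, beside 45%. VLDLR, a lipoprotein receptor, was at 199 ± 20.2 CPM with siGOLM1-1, 49.5 ± 4.53 CPM with siGOLM1-2 and 89.1 ± 0.721 CPM in control. VLDLR rose with siGOLM1-1 (log2 FC 1.16, SE 0.08, adjusted p = 1.51e-07) and fell with siGOLM1-2 (-0.85, SE 0.08, adjusted p = 3.79e-06). Of the fatty acid transport proteins, SLC27A1 rose with siGOLM1-1 (0.91, adjusted p = 5.95e-06) and was not called with siGOLM1-2 (-0.04, adjusted p = 0.741). SLC27A3 fell with siGOLM1-2 (-1.59, adjusted p = 0.00016) and with siGOLM1-1 (-1.20, adjusted p = 0.00106). SLC27A4 was lower with siGOLM1-1 than with siGOLM1-2 (-0.71, adjusted p = 2.28e-06). Against control it was called lower with siGOLM1-1 (-0.34, adjusted p = 0.00165) and higher with siGOLM1-2 (0.37, adjusted p = 0.000934).

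Of 18 tested genes of storage and lipolysis, 4 were called higher and 8 lower with siGOLM1-1, and 1 higher and 5 lower with siGOLM1-2. The share called was 66.7% with siGOLM1-1, beside 47.5% of all tested genes, and 33.3% with siGOLM1-2, beside 45%. AGPAT1, which performs the same step as AGPAT2, was at 30.1 ± 0.895 CPM with siGOLM1-1, 80.5 ± 3.22 CPM with siGOLM1-2 and 74.4 ± 3.96 CPM in control. AGPAT1 fell with siGOLM1-1 (log2 FC -1.31, SE 0.06, adjusted p = 3.82e-09), as did AGPAT5 (-0.94, SE 0.13, adjusted p = 6.12e-05). ABHD6, a monoacylglycerol lipase, fell with siGOLM1-2 (-1.43, SE 0.10, adjusted p = 2.21e-07), as did AGPAT4 (-0.85, SE 0.12, adjusted p = 6.77e-05). With the other siRNA none of these was called. AGPAT1 was at 0.11 (adjusted p = 0.149) and AGPAT5 at -0.06 (adjusted p = 0.752) with siGOLM1-2. ABHD6 was at 0.18 (adjusted p = 0.139) and AGPAT4 at -0.21 (adjusted p = 0.161) with siGOLM1-1.

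Of 35 tested genes of oxidation, 6 were called higher and 11 lower with siGOLM1-1, and 4 higher and 12 lower with siGOLM1-2. The share called, 48.6% with siGOLM1-1 and 45.7% with siGOLM1-2, was near the 47.5% and 45% of all tested genes. HSD17B4, the multifunctional enzyme of peroxisomes, was at 56 ± 3.08 CPM with siGOLM1-1, 112 ± 2.91 CPM with siGOLM1-2 and 156 ± 13.5 CPM in control. HSD17B4 fell with siGOLM1-1 (log2 FC -1.48, SE 0.07, adjusted p = 4.53e-09), as did ECI2, an enoyl-CoA isomerase (-1.07, SE 0.12, adjusted p = 5.93e-06). HSD17B4 was also called lower with siGOLM1-2 (-0.48, adjusted p = 0.00011), and ECI2 was not called with it (0.05, adjusted p = 0.726). DECR1, a reductase for unsaturated chains, fell with siGOLM1-2 (-0.94, SE 0.08, adjusted p = 8.63e-07), as did ETFDH, which passes electrons to the respiratory chain (-0.80, SE 0.09, adjusted p = 9.52e-06). DECR1 was called higher with siGOLM1-1 (0.28, adjusted p = 0.00859), and ETFDH was not called with it (0.19, adjusted p = 0.0865). The median log2 fold changes of the 4 lists lay between -0.35 and -0.10 with siGOLM1-1 and between -0.11 and 0 with siGOLM1-2, beside -0.01 over all tested genes in each comparison.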

How the data were processed

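The deposited table holds raw read counts per gene, per the file headers and from the values, for 12 libraries. Per the submitters' processing notes, the authors used bcl2fastq 2.20, STAR 2.7.3 and DESeq2 1.24.0 with hg19. The read counter, annotation release and strand setting are not given in the sources used here, so overlapping and antisense genes are uncertain. Their other tables were not used.

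All values were computed here from these counts. In R 4.3.3, edgeR 4.0.16 kept 17532 of 57773 genes with filterByExpr (24653 were 0 in every library), applied TMM factors and fitted all 12 libraries with 1 mean per group, robust quasi-likelihood dispersion, 9 residual degrees of freedom and a common biological coefficient of variation of 0.146. A call needed an adjusted p under 0.05, with Benjamini-Hochberg adjustment over all tested genes. The scripts were tested on simulated counts. CPM is the count relative to the TMM-scaled total of the tested genes. Totals of 41.6 M to 71.3 M set the counting precision.

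Groups came from the labels. Alternatives were DESeq2 1.42.0 (Wald test or size factors), library totals, other filters, only the groups compared, replicate number as a block, each library left out and each control pair alone. With a control pair alone, the spread is pooled over all groups.

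The text names GOLM1, all 41 members and the cell type markers. It gives library values for members called with a log2 fold change of at least 1 in any comparison, and, of other pathway genes, for each list and comparison the 2 with the smallest p. Library values of ACSL1 were added because its controls split. The members, lists and alternatives were chosen with earlier results of these data known. The marker PECAM1 was not analysed here. Another marker list is not reported here. Exon overlaps come from GENCODE release 29 and promoters from RefSeq GRCh38.p14.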

Additional observations from a re-analysis of the deposited data

Results flagged for a closer look

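In 14 of 126 groups of 4 libraries (41 genes and GOLM1 in 3 groups), the highest or lowest library stood apart from the other 3 by more than Dixon's critical ratio. Chance gives about 1 in 20 such groups. Most of these values belonged to siGOLM1-2 replicate 4. It was above its other libraries for PLIN2 (52.3 CPM against 32.9 to 33.5), PPARG (61.7 against 34.1 to 37.8), DGAT2 (9.6 against 6.01 to 6.42), MGLL (163 against 124 to 129), ACSL4 (134 against 114 to 116) and ELOVL7 (8.13 against 6.87 to 7.06). It was below them for ACACB (21.6 CPM against 28.5 to 29.5), ACSL1 (35.6 against 40 to 40.6) and HILPDA (14.7 against 19.5 to 19.9). Without this library, the siGOLM1-2 against control values were 0.69 for DGAT2, 0.14 for PLIN2, -0.69 for HILPDA, -1.08 for ELOVL7 and -0.22 for PPARG.

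In siGOLM1-1 replicate 1, PLIN2 was at 38.8 CPM against 90.2 to 93.5 CPM in the other 3 libraries, and ACSL1 at 49.3 CPM against 58.7 to 60 CPM. Without it, the siGOLM1-1 against control value was 1.61 for PLIN2. In siGOLM1-1 replicate 4, GOLM1 was at 37.5 CPM against 38.7 to 38.9 CPM. FASN was at 873 CPM in control replicate 4 against 691 to 709 CPM in the other controls, and ACADVL at 328 CPM in control replicate 1 against 364 to 369.7 CPM.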

How the results depend on the processing

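FASN, SCD, ELOVL7, LPIN2, HILPDA and SREBF1 kept their direction and call in all 3 comparisons under each alternative run (21 per comparison with control, 19 between the siRNAs). Of the called members, 6 of 24 with siGOLM1-1, 8 of 22 with siGOLM1-2 and 6 of 26 between the siRNAs lost the call under at least 1 alternative, and 0 changed sign. Uncalled members were called under some alternative in 10 cases with siGOLM1-1, 5 with siGOLM1-2 and 6 between the siRNAs. These include ACADM with siGOLM1-1 (adjusted p = 0.0321) and DGAT1 with siGOLM1-2 (adjusted p = 0.0469), each called in 1 run. Between the siRNAs, ELOVL2 (adjusted p = 0.0401) and PLIN3 (adjusted p = 0.00963) were each called in 1 run. Leaving out 1 library, 11 to 14 members were higher and 10 to 15 lower with siGOLM1-1, 5 to 6 and 13 to 16 with siGOLM1-2, and 13 to 16 and 7 to 11 between the siRNAs. Of all genes tested in these runs, 20.8% to 24.5% were higher and 21% to 24.5% lower with siGOLM1-1. These shares were 19.2% to 22.7% and 19.6% to 24.1% with siGOLM1-2, and 24.8% to 27.7% and 23.8% to 26.5% between the siRNAs. The replicate numbers did not pair the libraries: of 12 same-numbered pairs, 3 had deviations correlated over 0.1 (range -0.20 to 0.35), and 4 of 12 libraries correlated best with their own number. With the replicate block, 13 members were higher and 12 lower with siGOLM1-1, 5 and 16 with siGOLM1-2, and 16 and 10 between the siRNAs. Of all tested genes, the block gave 23.9% and 24%, 22.2% and 23.1%, and 27.8% and 27%. In the same order, no filter gave 10 and 11, 5 and 15, and 13 and 8, and DESeq2's Wald test 13 and 12, 6 and 16, and 17 and 10. Of the 33120 genes tested without a filter, the shares were 11.6% and 11.4%, 10.9% and 11.1%, and 14.2% and 13.8%. With DESeq2's Wald test they were 25.1% and 23.9%, 23.7% and 22.9%, and 28.1% and 27.5%. Library totals moved the median of all genes to -0.12 between the siRNAs. At these totals the members with the fewest counts, ACSL5, DGAT2 and LIPE, averaged at least 2.03 CPM in every group.

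Signs changed for uncalled members, and the cause was not tested. With siGOLM1-1 against control replicates 1 and 2, values were 0.11 for ACACB, 0.39 for ACSL1, 0.80 for ACSL5, -0.01 for ELOVL2, -0.02 for FABP5, -0.04 for FADS1, 0.01 for HADHA and 0.14 for MGLL. Without siGOLM1-1 replicate 2 or 3, ACACB was 0.02 each, and 0.06 without control replicate 4 (-0.07 to 0.06 leaving out each library). DGAT1 was -0.05 without siGOLM1-1 replicate 4 (-0.05 to 0.13). FADS1 was -0.04 with library totals, -0.01 without siGOLM1-1 replicate 1, 0.00 without control replicate 3 and -0.01 without control replicate 4 (-0.01 to 0.04). With siGOLM1-2, ACSL4 was -0.01 without siGOLM1-2 replicate 4, control replicate 1 or control replicate 2 (-0.01 to 0.13), and -0.12 against control replicates 3 and 4. AGPAT2 was -0.06, -0.12 and -0.08 without the same libraries (-0.12 to 0.17) and -0.31 against replicates 3 and 4. PPARG was 0.00 with the replicate block, -0.22, -0.03 and -0.03 without the same libraries (-0.22 to 0.11) and -0.13 against replicates 3 and 4. ACSL5 was -0.42 against replicates 3 and 4, ACSS2 0.04 and MGLL 0.01 against replicates 1 and 2, and ELOVL6 -0.06 without siGOLM1-2 replicate 4 (-0.06 to 0.15). Between the siRNAs, library totals gave -0.02 for ACACB, -0.09 for CPT2, -0.03 for LPIN1 and -0.01 for MGLL. ACACA was 0.01 without siGOLM1-1 replicate 3 (-0.23 to 0.01), and FABP5 0.03 without siGOLM1-1 replicate 4 and 0.08 without siGOLM1-2 replicate 4 (-0.14 to 0.08).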
